A study of Mus musculus with 4 samples.

Results

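The neurotrophins and their receptors were followed in the hypothalamus of mice fed a Western diet (WD) with and without the taste receptor gene *Tas1r3*. The group was set by name and holds 7 genes, namely the ligands *Bdnf* and *Ntf3*, the Trk receptors *Ntrk2* and *Ntrk3*, the receptor *Ngfr*, the sorting receptor *Sort1* and the secreted neuropeptide precursor *Vgf*. Of the 16339 genes in the table, 6 of these 7 were listed, with 15 of the 30891 named transcripts between them. *Ntf3* had no transcript in the table, from which transcripts with fewer than 10 estimated counts in all were left out. WT WD and Tas1r3-/- WD both denote male C57BL/6 mice that were given a diet of 60% fat and a 30% sucrose solution for 12 weeks, starting as young adults. Tas1r3-/- WD mice lacked *Tas1r3* throughout the body from conception, and the WT WD mice were their littermates, matched in age and weight before the diet. On WD, the paper reports, mice without *Tas1r3* gained less weight than WT mice. RNA was sequenced from 2 libraries per group, and nothing in the labels says that each library came from a separate animal, so p-values measure only the spread between these libraries. No library of mice on the normal diet was analysed here, so the comparison is of genotypes under WD only. The sums of all estimated counts were 5917470 (WT WD replicate 1), 6177210 (WT WD replicate 2), 6273772 (Tas1r3-/- WD replicate 1) and 5874782 (Tas1r3-/- WD replicate 2).

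Neurotrophins are secreted growth factors that keep neurons alive and adjust their synapses. Each is made as a longer precursor, cut by proprotein convertases and, in neurons, released in part from dense-core vesicles. The mature proteins act through Trk receptor tyrosine kinases (BDNF through TrkB, the product of *Ntrk2*, and NT-3 mainly through TrkC, the product of *Ntrk3*), and the precursors act mainly through p75NTR, the product of *Ngfr*, together with sortilin. Trk receptors recruit adaptors that drive the Ras MAP kinase, PI3 kinase and phospholipase C gamma arms. In the hypothalamus, BDNF and TrkB are known for limiting food intake and body weight, and VGF for energy balance.

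The library labelled WT WD replicate 2 stood apart from the others before any comparison was made. The markers of the hypothalamus, a list of 15 neuropeptides and transcription factors, summed to 1890 CPM (counts relative to the size of the library, scaled by the TMM method) in WT WD replicate 1, 34.1 CPM in WT WD replicate 2, and 1377 and 1326 CPM in Tas1r3-/- WD replicates 1 and 2. Its most abundant gene *Pmch*, the precursor of melanin-concentrating hormone, was at 768 and 6.59 CPM in WT WD and at 374 and 559 CPM in Tas1r3-/- WD. *Avp*, which encodes vasopressin, was at 335 and 2.31 CPM in WT WD and at 197 and 203 CPM in Tas1r3-/- WD. The transcription factor genes *Nkx2-1*, *Hmx2* and *Hmx3*, which mark the developing and adult hypothalamus, were at 0 in WT WD replicate 2 and above 0 in the other 3 libraries. The defining markers of the labelled tissue were therefore absent or far lower in that library than in the others. Thalamic markers summed to 2197 CPM there, against 175 CPM in WT WD replicate 1 and 245 and 369 CPM in Tas1r3-/- WD, with *Prkcd* at 585 CPM against 10.6, 15.7 and 41.6 CPM and *Zic1* at 466 CPM against 46.5, 56.9 and 71.9 CPM. Choroid plexus markers summed to 769 CPM in WT WD replicate 2 and to between 40.3 and 59.6 CPM in the others, with *Ttr* at 678 CPM against at most 4.29 CPM, whereas *Clic6* was at 33.3 CPM, inside the range of the others. Pituitary hormone genes were high in Tas1r3-/- WD replicate 1, where the list summed to 1428 CPM against 14.6 and 1.81 CPM in WT WD and 4.38 CPM in Tas1r3-/- WD replicate 2. Growth hormone (*Gh*) was at 762 CPM and prolactin (*Prl*) at 499 CPM in that library, and both were at 0 in WT WD replicate 2. The root mean square difference over all genes tested was 0.759 on the log2 scale between the WT WD libraries and 0.373 between the Tas1r3-/- WD libraries, and it was 0.411 and 0.417 between WT WD replicate 1 and the Tas1r3-/- WD libraries. For these reasons the main results below are also given without WT WD replicate 2.

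**Figure D1:**
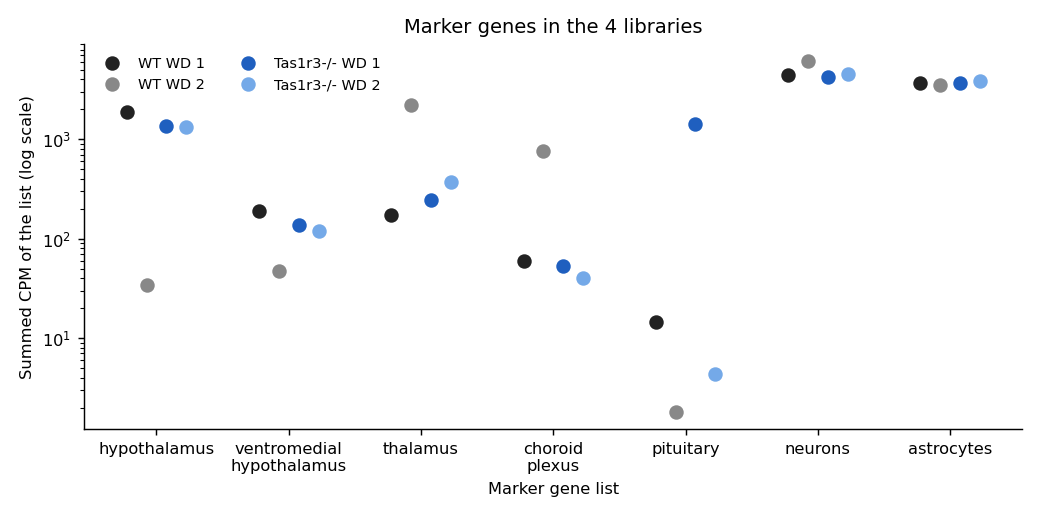
Summed CPM (log axis) of 7 marker gene lists in each of the 4 libraries, with 1 point per library. WT WD 2 is lowest for the hypothalamus at 34.1 CPM and highest for the thalamus at 2197 CPM and the choroid plexus at 769 CPM, and Tas1r3-/- WD 1 is highest for the pituitary at 1428 CPM.

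Sums of markers of broad cell classes varied less. Neuronal markers, led by *Snap25* and *Eno2*, summed to 4430 and 6069 CPM in WT WD and to 4195 and 4545 CPM in Tas1r3-/- WD, and astrocyte markers, led by *Aldoc* and *Slc1a2*, to 3654 and 3560 CPM and to 3706 and 3830 CPM. Oligodendrocyte markers (*Mbp* the most abundant) summed to 4995 and 6201 CPM in WT WD and to 5968 and 6066 CPM in Tas1r3-/- WD. For 5 of the 8 neuronal markers both Tas1r3-/- WD libraries were below both WT WD libraries (62.5%, against 19.0% of all genes tested), all 8 had the lower mean in Tas1r3-/- WD, and their median log2 fold change was -0.20 (-0.075 without WT WD replicate 2). The part of this in the results on neuronal genes below was not tested. None of the markers of these 3 classes was called by the test described next. Sums for oligodendrocyte precursors, microglia and endothelium lay between 324 and 385 CPM, 185 and 220 CPM, and 189 and 224 CPM. The sum for tanycytes with ependyma lay between 77.5 and 106 CPM, but its members went opposite ways in WT WD replicate 2, where the tanycyte gene *Col23a1* was at 2.64 CPM against 50.7, 32.0 and 27.4 CPM and the ependymal gene *Foxj1* at 57.0 CPM against 31.1, 27.2 and 30.3 CPM. Cortical and hippocampal markers summed to 496 and 473 CPM in WT WD and to 414 and 439 CPM in Tas1r3-/- WD. Members of this list also went opposite ways in WT WD replicate 2. There *Slc17a7* was at 265 CPM against 10.8, 2.41 and 11.9 CPM, and *Rasgrf2* at 127 CPM against 343, 320 and 321 CPM. Ventromedial hypothalamic markers summed to 190 and 47.8 CPM in WT WD and to 137 and 118 CPM in Tas1r3-/- WD, again with WT WD replicate 2 lowest. In bulk tissue, fewer cells of a type and less RNA per cell cannot be told apart.

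*Tas1r3* itself (ENSMUSG00000029072, chromosome 4 of GRCm39, 155943725 to 155947819) was at 6.01 and 4.45 CPM in WT WD and at 1.12 and 1.23 CPM in Tas1r3-/- WD. The groups did not overlap, and both knockout libraries were low, as their labels say. Its log2 fold change of -2.13 (standard error 0.42) had an edgeR unadjusted p of 0.00404 and an adjusted p of 0.756. A gene was called when its edgeR adjusted p was under 0.05 and its fold change at least 1.5, and no gene was called among the 14344 tested.

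For the neurotrophin genes the question was whether the loss of *Tas1r3* under WD went with a different level of ligand or receptor RNA. All 6 listed genes passed the filter on low counts, and 0 of them were called, against 0.0% of all genes tested. At an unadjusted edgeR p under 0.05 there were also 0 of 6, against 5.38% of all genes, and DESeq2 called 0 of 6, against 0.0558%. Both Tas1r3-/- WD libraries were above both WT WD libraries for 3 of the 6, namely *Ntrk2*, *Ngfr* and *Vgf*, against 20.6% of all genes tested, and below them for none of the 6, against 19.0%. Their median log2 fold change was 0.24, against -0.01 over all genes, and became 0.13 without WT WD replicate 2 and 0.62 when replicate 1 was dropped instead. WT WD replicate 2 was the lowest library for 4 of the 6 genes, against 34.6% of all genes, and it was the highest for *Sort1*, against 33.9%. Both Tas1r3-/- WD libraries were above WT WD replicate 1 alone for *Bdnf*, *Ntrk2*, *Ngfr*, *Sort1* and *Vgf* and below it for *Ntrk3*, where 37.6% of all genes were above it and 37.4% below. With WT WD replicate 1 left out, so that the library without hypothalamic markers was the only control, *Ntrk3*, *Ngfr* and *Vgf* were called, together with 14.3% of all genes tested. With WT WD replicate 2 left out, 0 of the 6 were called, against 0.217% of all genes.

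**Figure D2:**
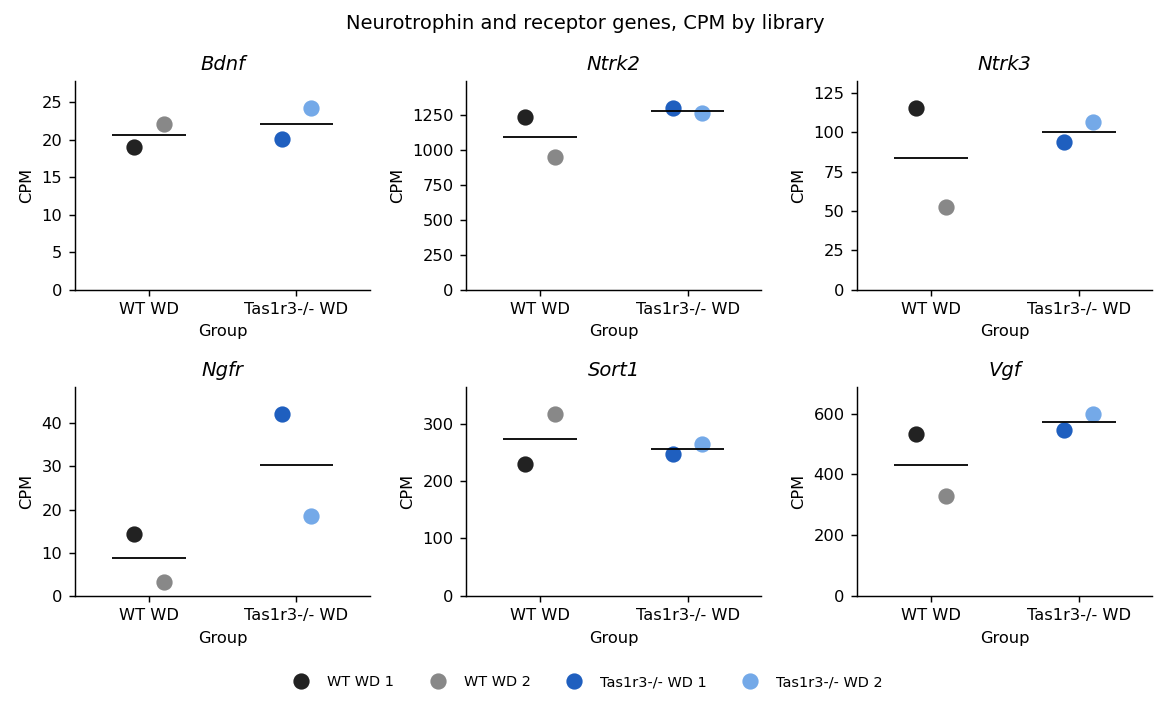
CPM of the 6 listed genes in each library, with 1 point per library and a line at the mean of each group (n = 2), and each vertical axis starting at 0. WT WD 2 is the lowest point for *Ntrk2*, *Ntrk3*, *Ngfr* and *Vgf* and the highest for *Sort1*, and the widest gap between the Tas1r3-/- WD points, relative to their level, is for *Ngfr* at 42.1 and 18.6 CPM.

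*Bdnf* (ENSMUSG00000048482, chromosome 2 of GRCm39, 109505045 to 109557475, plus strand) encodes brain-derived neurotrophic factor, the main ligand of TrkB. It was at 19.1 and 22.1 CPM in WT WD and at 20.1 and 24.2 CPM in Tas1r3-/- WD. The groups overlapped, and the 4 libraries spanned a narrow range. Its log2 fold change came to 0.10, the standard error was 0.19 and the 95% confidence interval ran from -0.39 to 0.60, at an edgeR adjusted p of 0.893. In folds the interval runs from 0.763 to 1.51, a width set by the spread between 2 libraries per group, moderated by that of all genes tested. Without WT WD replicate 2 the log2 fold change was 0.21, and without Tas1r3-/- WD replicate 2 it was -0.041, so the direction rests on 1 library.

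The *Bdnf* gene has several 5′ exons, each with its own promoter, that are spliced to a shared coding exon. GENCODE M39 lists 18 *Bdnf* transcripts, of which 16 share the same coding sequence of 750 bases. The primers used in the study for quantitative PCR of *Bdnf* lie in this coding exon at chr2:109554258-109554281 and chr2:109554361-109554384, give a product of 127 bases and match all 18 transcripts. They are shown because, like the sum over transcripts used here, they cannot tell the transcripts apart. They are written in capitals throughout since every base pairs with its target.
Bdnf forward primer: AAAGTCCCGGTATCCAAAGGCCAA
Bdnf reverse primer: TAGTTCGGCATTGCGAGTTCCAGT

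The table lists 6 RefSeq transcripts of *Bdnf*. NM_001048142 held the most counts, with 42.5 and 37.0 estimated counts in WT WD, against 13.5 and 63.0 in Tas1r3-/- WD. Its share of *Bdnf* counts was 38.4% and 27.6% in WT WD, against 10.9% and 45.7% in Tas1r3-/- WD, so the knockout libraries lay on either side of the controls (two-sided exact permutation p = 1, where 2 libraries against 2 cannot give less than 0.33). NM_001048139 had 39.8 and 18.8 estimated counts in WT WD, against 17.6 and 40.3 in Tas1r3-/- WD, with 1 low and 1 high library in each group. NM_007540 had 11.2 and 37.1 in WT WD, against 58.8 and 34.6 in Tas1r3-/- WD, and on the CPM scale the higher WT WD library (6.12 CPM) nearly met the lower Tas1r3-/- WD library (6.15 CPM). Log2 fold changes of these 3 were -0.03, -0.02 and 0.96, each with an edgeR adjusted p of at least 0.941 over all 25699 transcripts tested, of which 0.0% were called by edgeR and 0.0272% by DESeq2. The value for NM_007540 became 2.02 without WT WD replicate 2 and 0.37 when replicate 1 was dropped instead.

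NM_001048141 was the only *Bdnf* transcript for which both Tas1r3-/- WD libraries lay below both WT WD libraries, a pattern that 17.8% of all transcripts tested showed. Its estimated counts were 17.1 and 23.3 in WT WD, against 0.214 and 0.00178 in Tas1r3-/- WD. Both knockout libraries were thus under the 3 counts that a count of 0 allows. The mean WT WD CPM, taken as measured and without its own spread, was 6.77 times the mean CPM of that limit in the knockout libraries. That limit covers counting error and not the assignment of reads among transcripts, so this ratio sets no lower bound on the fold change. The edgeR unadjusted p was 0.00646, and 4.59% of all transcripts had one under 0.05, and the adjusted p was 0.939, so it was not called. NM_001048141 passed the filter on low counts only through the WT WD libraries, where it was higher. Its p-value and its place beside these shares are therefore descriptions only. NM_001285419 had 0.0936 and 5.41 estimated counts in WT WD, against 24.3 and 0.0110 in Tas1r3-/- WD, and NM_001285422 had 0.00347 and 12.6 in WT WD, against 10.1 and 0.000408 in Tas1r3-/- WD. These transcripts were too low to be tested, and each was present in 1 library of each group and near 0 in the other. Reads of the shared exon can be assigned to any *Bdnf* transcript, and the sum varied far less than the parts, with 110.7 and 134.2 estimated counts in WT WD, against 124.6 and 137.9 in Tas1r3-/- WD. The highest library was 1.25 times the lowest for the sum and 2.28, 4.66 and 5.24 times for NM_001048139, NM_001048142 and NM_007540. What made the transcripts vary more than their sum was not tested.

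**Figure D3:**
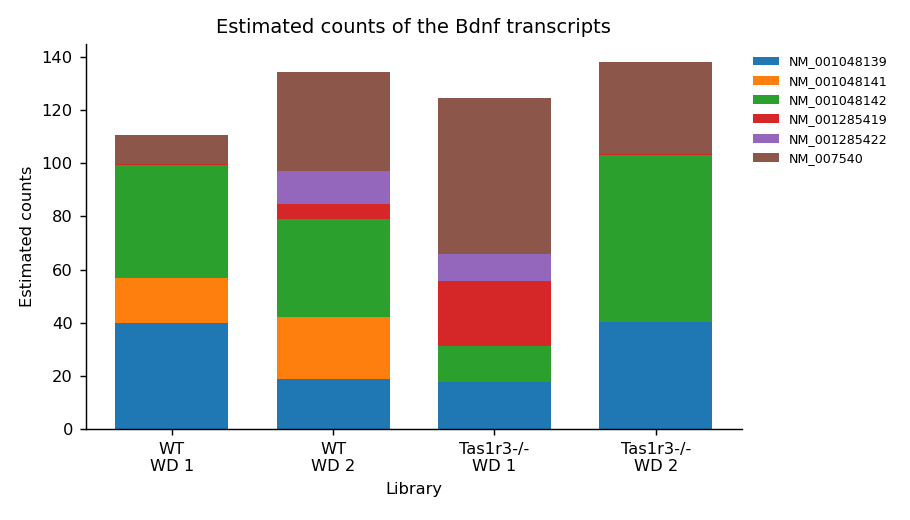
Estimated counts of the 6 *Bdnf* transcripts, stacked for each library, so that the full bar is the *Bdnf* sum. The bars reach between 110.7 and 137.9 counts while their makeup changes from library to library, and NM_001048141 is visible in both WT WD bars and in neither Tas1r3-/- WD bar.

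CREB, the cAMP response element binding protein, is a known activator of *Bdnf* transcription, and the study addresses CREB and BDNF together. RefSeq promoter windows from 250 bases before to 50 bases after a start (build GRCm38.p6) held 7 windows of *Bdnf*, and each was found by its sequence in GRCm39. The letters searched on both strands were the full cAMP response element TGACGTCA and its shorter form CGTCA, which the full element contains on each strand. No *Bdnf* window held the full element, which is in 1.79% of all 32851 windows, and 1 held the shorter form, which is in 20.8%. None of the other 4 windows found, of *Ntf3*, *Ngfr* and *Ntrk2*, held either form. The stretch with the match is shown because it is the only such match among the 11 windows. It lies at chr2:109522671-109522780 of GRCm39, plus strand, with the match in capitals, 35 bases before the start.
Bdnf promoter stretch: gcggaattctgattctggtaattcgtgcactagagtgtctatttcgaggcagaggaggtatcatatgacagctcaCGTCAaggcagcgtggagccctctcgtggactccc
A match of letters is a description and does not show binding.

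*Ntf3* (ENSMUSG00000049107, chromosome 6, 126078375 to 126143873, minus strand), which encodes neurotrophin-3, is given no value, since it had no transcript in the table, and the same holds for *Ntf5*, a further ligand of TrkB that was listed as a pathway member.

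*Ntrk2* (ENSMUSG00000055254, chromosome 13, 58954176 to 59281784, plus strand) encodes TrkB in several forms. The full-length form carries the tyrosine kinase, and the truncated form TrkB.T1, abundant in astrocytes, ends in a short tail in its place. Both share 1394 coding bases and then part, the truncated form (of the GENCODE M39 models) in its exon 12 of 12 at chr13:59079838-59079874 and the full-length form in its exon 13 of 18 at chr13:59133617-59133653. The truncated reading frame has 476 codons before the stop and the full-length frame 821. The last 30 shared bases are printed in lower case and the next 37 bases of each form in capitals, since these 37 bases are all that is left of the coding sequence of the truncated form, its stop codon included.
Ntrk2 truncated form: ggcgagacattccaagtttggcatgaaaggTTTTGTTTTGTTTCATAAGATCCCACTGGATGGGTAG
Ntrk2 full-length form: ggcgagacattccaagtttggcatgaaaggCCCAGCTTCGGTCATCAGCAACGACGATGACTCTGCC

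Summed over transcripts, *Ntrk2* was at 1237 and 948 CPM in WT WD and at 1298 and 1261 CPM in Tas1r3-/- WD. The groups did not overlap, but WT WD replicate 1 lay close under the knockout libraries and WT WD replicate 2 was the low value. The gene's log2 fold change came to 0.23, the standard error was 0.17 and the 95% confidence interval ran from -0.22 to 0.68, at an edgeR adjusted p of 0.772. Leaving out WT WD replicate 2 gave 0.050, and leaving out WT WD replicate 1 gave 0.44, with an edgeR adjusted p of 0.00242 but a fold change under 1.5.

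The table holds 3 transcripts of *Ntrk2*. NM_008745, the RefSeq record of the truncated form, had 5136 and 3976 estimated counts in WT WD, against 5771 and 5194 in Tas1r3-/- WD. NM_001025074, the full-length form, had 1772 and 1466 in WT WD, against 1986 and 1555 in Tas1r3-/- WD. NM_001282961, whose form was not determined here, had 291 and 312 in WT WD, against 326 and 441 in Tas1r3-/- WD. The forms given for the other transcripts were not checked here against the GENCODE models, with which no RefSeq record was paired. WT WD replicate 2 was the lowest library for the truncated and the full-length forms and not for the third transcript. The truncated form took 71.3% and 69.1% of *Ntrk2* counts in WT WD, against 71.4% and 72.2% in Tas1r3-/- WD, not divided by transcript length. The difference of 1.60 percentage points had a two-sided exact permutation p of 0.33, the smallest that 2 libraries against 2 allow, and it was 0.482 points without WT WD replicate 2 and 2.72 points when replicate 1 was dropped instead. The full-length form took 24.6% and 25.5% in WT WD, against 24.6% and 21.6% in Tas1r3-/- WD. Log2 fold changes were 0.25 (standard error 0.19) for the truncated form, 0.11 (standard error 0.19) for the full-length form and 0.35 (standard error 0.25) for NM_001282961, with edgeR adjusted p of 0.941, 0.976 and 0.941. For the truncated form, leaving out WT WD replicate 2 gave 0.047 and leaving out WT WD replicate 1 gave 0.50, and for NM_001282961, leaving out Tas1r3-/- WD replicate 2 gave 0.036 and leaving out Tas1r3-/- WD replicate 1 gave 0.61. Unlike the *Bdnf* transcripts, these kept a similar makeup in all 4 libraries.

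**Figure D4:**
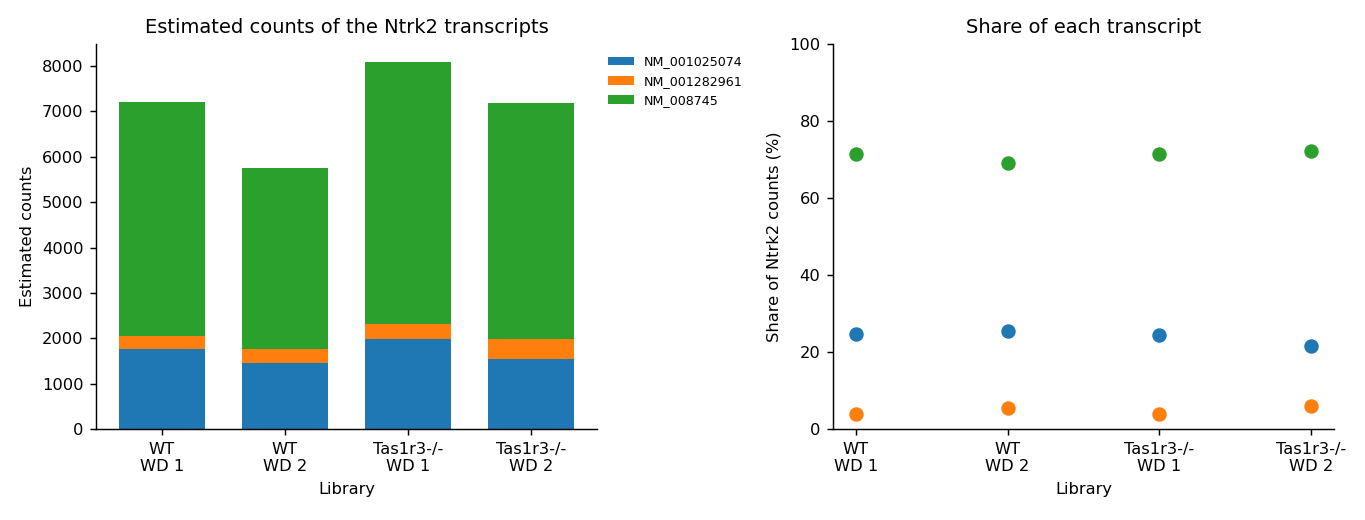
Left, estimated counts of the 3 *Ntrk2* transcripts stacked for each library. Right, the share (%) of each transcript in the *Ntrk2* counts of that library, in the same colors, where the truncated form NM_008745 lies between 69.1% and 72.2% and the full-length form NM_001025074 between 21.6% and 25.5%.

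*Ntrk3* (ENSMUSG00000059146, chromosome 7, 77825707 to 78387760, minus strand) encodes TrkC. It was at 115 and 52.4 CPM in WT WD and at 94.1 and 106 CPM in Tas1r3-/- WD. The groups overlapped, with the highest and the lowest library both in WT WD. The log2 fold change amounted to 0.26, the standard error was 0.38 and the 95% confidence interval ran from -0.73 to 1.25, at an edgeR adjusted p of 0.865. It turned to -0.20 without WT WD replicate 2, and was 0.94 (edgeR adjusted p = 5.64e-04) without WT WD replicate 1, so its sign depends on which control library is kept. NM_182809, the record of a truncated TrkC, had 578 and 267 estimated counts in WT WD, against 472 and 515 in Tas1r3-/- WD, or 86.1% and 84.0% of *Ntrk3* counts in WT WD, against 80.6% and 84.8% in Tas1r3-/- WD. The full-length NM_008746 had 93.6 and 50.9 in WT WD, against 113 and 92.3 in Tas1r3-/- WD. The forms given for these records were likewise not checked here. For both forms WT WD replicate 2 was the lowest library.

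*Ngfr* (ENSMUSG00000000120, chromosome 11, 95459638 to 95478561, minus strand) encodes p75NTR, which binds all neurotrophins and, with sortilin, their precursors. It was at 14.4 and 3.13 CPM in WT WD and at 42.1 and 18.6 CPM in Tas1r3-/- WD. The groups did not overlap, but each group held a high and a low library. The log2 fold change of 1.79 was the furthest from 0 of the 6 genes, with a standard error of 0.76, a 95% confidence interval of -0.18 to 3.77, and an edgeR adjusted p of 0.756. Leaving out WT WD replicate 2 gave 1.08, and leaving out WT WD replicate 1 gave 3.28 (edgeR adjusted p = 0.00230). The highest value came from the library with pituitary hormone RNA (1428 CPM for that list, against 4.38 CPM in the other Tas1r3-/- WD library), and the part of this tissue in the *Ngfr* value was not tested. Without that library, Tas1r3-/- WD replicate 1, the log2 fold change was 1.08. Adult p75NTR is also known from cholinergic neurons of the basal forebrain, which border the hypothalamus. Their 5 markers, a list chosen after the *Ngfr* values were seen, summed to 5.67 and 49.4 CPM in WT WD and to 44.7 and 14.9 CPM in Tas1r3-/- WD, with *Slc5a7* (the choline transporter) the most abundant at 2.06 and 27.2 CPM and at 18.5 and 5.08 CPM, and *Slc18a3* at 1.03 and 13.7 CPM and at 7.39 and 2.63 CPM. *Ngfr* and this sum had the same order in WT WD replicate 1, Tas1r3-/- WD replicate 2 and Tas1r3-/- WD replicate 1, from low to high, whereas in WT WD replicate 2 the sum was highest and *Ngfr* lowest. Of its 5 members only *Lhx8* had the order of *Ngfr* in all 4 libraries, at 1.37 and 0 CPM in WT WD and at 7.07 and 1.58 CPM in Tas1r3-/- WD, whereas *Chat* was at 1.20 and 8.40 CPM and at 10.3 and 4.73 CPM, and *Gbx1* at 0 and 0.165 CPM and at 1.45 and 0.877 CPM. The part of these neurons in the *Ngfr* values was not tested.

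*Sort1* (ENSMUSG00000068747, chromosome 3, 108191285 to 108268842, plus strand) encodes sortilin, which sorts BDNF to the secretory pathway and joins p75NTR on the cell surface. It was at 229 and 317 CPM in WT WD and at 247 and 264 CPM in Tas1r3-/- WD. Both Tas1r3-/- WD libraries fell between the WT WD libraries. Sortilin RNA had a log2 fold change of -0.10, the standard error was 0.19 and the 95% confidence interval ran from -0.60 to 0.41, at an edgeR adjusted p of 0.906, and it turned to 0.16 without WT WD replicate 2. NM_019972 took 67.7% and 68.4% of *Sort1* counts in WT WD, against 65.7% and 71.3% in Tas1r3-/- WD. Of the 5 sortilin family genes tested, 0 were called, 3 had the higher mean in Tas1r3-/- WD and 2 in WT WD, and the median log2 fold change was 0.18 (0.15 without WT WD replicate 2). *Sorl1*, a sorting receptor of the same family, was at 209 and 210 CPM in WT WD and at 258 and 250 CPM in Tas1r3-/- WD, groups that did not overlap and whose replicates lay close together (log2 fold change 0.28, standard error 0.12, edgeR unadjusted p = 0.0731). *Sorcs2*, which also pairs with p75NTR, was at 110 and 180 CPM in WT WD and at 118 and 127 CPM in Tas1r3-/- WD.

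*Vgf* (ENSMUSG00000037428, chromosome 5, 137055246 to 137062205, plus strand) encodes a precursor of secreted peptides that is induced by neurotrophins and stored in dense-core vesicles. It was at 534 and 330 CPM in WT WD and at 547 and 598 CPM in Tas1r3-/- WD. The groups did not overlap, with WT WD replicate 1 just under the knockout libraries and WT WD replicate 2 well below all others. *Vgf* had a log2 fold change of 0.41, the standard error was 0.26 and the 95% confidence interval ran from -0.25 to 1.07, at an edgeR adjusted p of 0.760. Leaving out WT WD replicate 2 gave 0.10, and leaving out WT WD replicate 1 gave 0.80 (edgeR adjusted p = 4.95e-04). Genes of precursor processing and dense-core cargo shared the low value of that library in part. *Scg2* (secretogranin II) was at 1303 and 517 CPM in WT WD and at 1235 and 1265 CPM in Tas1r3-/- WD, and the convertase gene *Pcsk1* at 66.0 and 29.7 CPM and at 71.3 and 76.8 CPM. *Pcsk2*, another convertase, went the other way, at 350 and 679 CPM in WT WD and at 303 and 340 CPM in Tas1r3-/- WD, as did *Cpe* (carboxypeptidase E, a sorting receptor for BDNF precursor), at 1780.2 and 2640.0 CPM and at 1701 and 1801 CPM. Of the 17 genes of this list tested, 0 were called, both Tas1r3-/- WD libraries were above both WT WD libraries for 5 (29.4%, against 20.6% of all genes) and below them for 2 (11.8%, against 19.0%), and the median log2 fold change was 0.10 (0.03 without WT WD replicate 2).

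The pathway from ligands and precursor processing to target genes was covered by 9 lists with 131 different genes tested, of which 125 remain when the 6 genes above are left out. No gene of the 125 was called, and 11 had an unadjusted edgeR p under 0.05, against 5.38% of all genes tested. Both Tas1r3-/- WD libraries were above both WT WD libraries for 45 genes (36.0%, against 20.6% of all genes tested) and below for 16 (12.8%, against 19.0%), and the median log2 fold change was 0.10 (0.12 without WT WD replicate 2). Against WT WD replicate 1 alone, both knockout libraries were above it for 60.8% of the 125 and below it for 25.6%, where the shares of all genes were 37.6% and 37.4%. Against WT WD replicate 2 alone, they were above it for 52.0% and below it for 39.2%, where the shares of all genes were 41.8% and 40.6%. Genes of a pathway are expressed in the same cells and are not independent. The lists were also chosen with earlier results of these data known. These shares, and those of the single lists below, are therefore descriptions.

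Adaptors of the Trk receptors had the highest share, among the 9 lists, of genes with both Tas1r3-/- WD libraries above both WT WD libraries. Of 22 tested, this held for 14 (63.6%, against 20.6% of all genes) and the reverse for none of the 22 (against 19.0%), the median log2 fold change was 0.20, and 17 of 22 (77.3%) were above WT WD replicate 1 alone, against 37.6% of all genes, and 17 of 22 above WT WD replicate 2 alone, against 41.8%. *Sos1*, an exchange factor of Ras named after its values were seen, had the lowest unadjusted p of the list, at 86.1 and 64.9 CPM in WT WD and at 117 and 111 CPM in Tas1r3-/- WD (log2 fold change 0.59, standard error 0.18, edgeR unadjusted p = 0.0210, adjusted p = 0.756). *Ptpn11*, the phosphatase SHP2 that couples Trk receptors to Ras, was at 214 and 215 CPM in WT WD and at 239 and 243 CPM in Tas1r3-/- WD. *Irs2*, a docking protein shared with the insulin receptor, was at 113 and 147 CPM in WT WD and at 186 and 180 CPM in Tas1r3-/- WD (log2 fold change 0.49, standard error 0.17, edgeR unadjusted p = 0.0366, adjusted p = 0.756). *Shc3*, a neuronal Shc adaptor, was at 125 and 454 CPM in WT WD and at 140 and 178 CPM in Tas1r3-/- WD, so here the library labelled WT WD replicate 2 was the high value. Leaving out WT WD replicate 2 gave a median of 0.14, and leaving out WT WD replicate 1 gave 0.31.

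With all libraries kept, the kinase arms had medians nearer 0 than the Trk adaptors. Without WT WD replicate 1 this did not hold for the calcium arm, at -0.33 against 0.31 for the adaptors. In the Ras MAP kinase arm the groups did not overlap for 5 genes in each direction of 18 tested (27.8%, where the shares of all genes were 20.6% above and 19.0% below), with *Mapk3* (ERK1) at 188 and 201 CPM in WT WD and at 166 and 169 CPM in Tas1r3-/- WD, and *Map2k1* (MEK1) at 290 and 211 CPM and at 246 and 238 CPM. The median log2 fold change of this arm was -0.06, and 0.04 without WT WD replicate 2. In the PI3 kinase, Akt and mTOR arm 6 of 18 were above (33.3%) and 3 below (16.7%), with a median of 0.08 (0.14 without WT WD replicate 2). Its 3 most abundant genes were *Akt1*, at 207 and 184 CPM in WT WD and at 203 and 203 CPM in Tas1r3-/- WD, *Gsk3b*, at 186 and 185 CPM and at 220 and 201 CPM, and *Mtor*, at 136 and 140 CPM and at 150 and 180 CPM. In the calcium arm with CREB 2 of 15 were above and 2 below (13.3% each, under both shares of all genes), with a median of -0.07 that turned to 0.12 without WT WD replicate 2. Of its most abundant genes, the calmodulin gene *Calm3* was at 1084 and 1252 CPM in WT WD and at 856 and 947 CPM in Tas1r3-/- WD (log2 fold change -0.37, standard error 0.15, edgeR unadjusted p = 0.0530), and its groups did not overlap. The kinase gene *Camk2a* was highest in WT WD replicate 2 (843 CPM, against 646, 658 and 660.0 CPM). *Creb1*, the gene of CREB itself, was at 32.3 and 35.9 CPM in WT WD and at 48.8 and 41.2 CPM in Tas1r3-/- WD (log2 fold change 0.40, standard error 0.16, edgeR unadjusted p = 0.0534). Its groups did not overlap either, and neither gene was called. Among partners of p75NTR and Trk, 3 of 14 tested were above (21.4%, against 20.6% of all genes) and 2 below (14.3%, against 19.0%), with a median of 0.06 (0.03 with either WT WD library left out), and the most abundant were *Maged1*, *Ptprs* and *Arhgdia*.

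**Figure D5:**
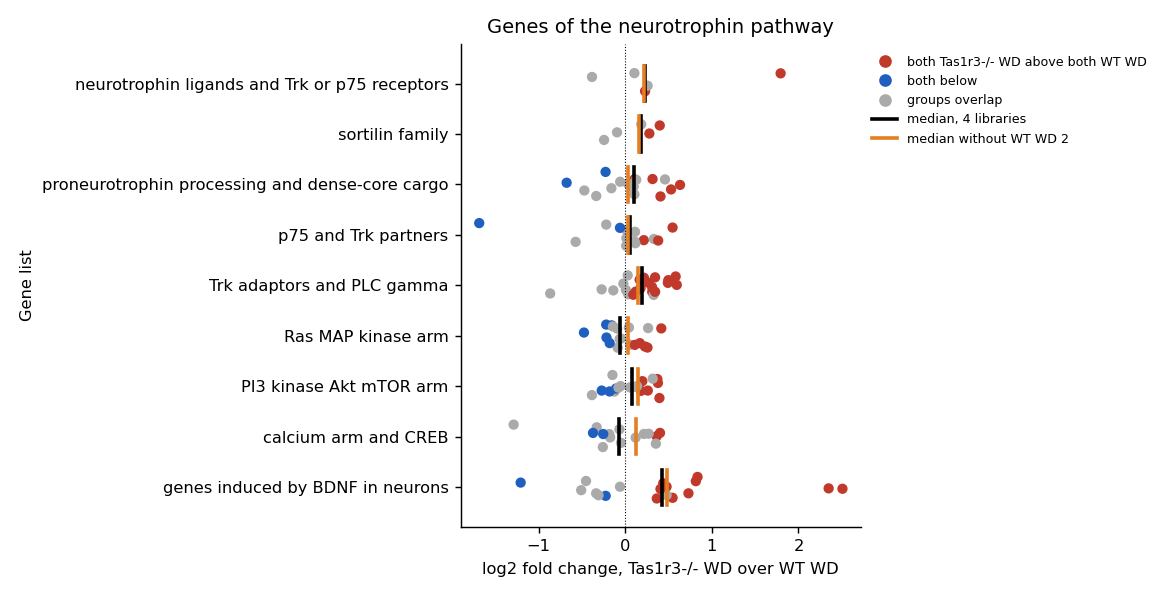
Log2 fold change (Tas1r3-/- WD over WT WD) of each gene tested in the 9 lists, with 1 point per gene, colored by whether the 2 groups of libraries overlapped, and lines at the median of each list over all 4 libraries (black) and without WT WD 2 (orange). The black lines lie between -0.07 and 0.42 and the orange lines between 0.03 and 0.49, and the genes induced by BDNF have the highest median in both.

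Genes that BDNF is known to induce in neurons, most of which other stimuli induce as well, had a median of 0.42 over 18 genes tested. This was the highest median of the lists with all libraries kept, as it was without WT WD replicate 2 (0.49). Without replicate 1 of WT WD the median was 0.28, under the 0.31 of the Trk adaptors. Both Tas1r3-/- WD libraries were above both WT WD libraries for 10 of 18 (55.6%, against 20.6% of all genes) and below for 2 (11.1%, against 19.0%), and they were above WT WD replicate 1 alone for 15 (83.3%, against 37.6%) and above WT WD replicate 2 alone for 10 (55.6%, against 41.8%). After *Vgf*, the most abundant were *Rgs4* and *Egr1*. *Rgs4*, a regulator of G protein signaling, was at 130 and 352 CPM in WT WD and at 151 and 187 CPM in Tas1r3-/- WD. *Egr1*, an immediate early transcription factor, was at 75.1 and 77.9 CPM in WT WD and at 130 and 143 CPM in Tas1r3-/- WD, a difference of 0.83 on the log2 scale (standard error 0.13), at an edgeR unadjusted p of 0.00142 and an adjusted p of 0.756. Here the WT WD libraries lay close together and apart from the knockout libraries, and the log2 fold change was 0.86 without WT WD replicate 2. Chosen after their values were seen, the immediate early genes *Egr3*, *Fosb* and *Fos* and the synaptic scaffold gene *Homer1* had the same shape. *Egr3* was at 3.26 and 2.64 CPM in WT WD and at 14.9 and 15.3 CPM in Tas1r3-/- WD, *Fosb* at 5.67 and 4.12 CPM and at 21.8 and 34.0 CPM, *Fos* at 46.5 and 47.3 CPM and at 66.0 and 71.0 CPM, and *Homer1* at 23.5 and 22.7 CPM and at 43.9 and 37.5 CPM. Their log2 fold changes were 2.35, 2.51, 0.55 and 0.81, each with an edgeR adjusted p of 0.756, and 2.20, 2.29, 0.56 and 0.79 without WT WD replicate 2. Of the 18 genes, 11 had the higher mean in Tas1r3-/- WD and 7 in WT WD. Among these 7 were *Dusp1*, *Dusp5* and *Dusp6*, with log2 fold changes of -0.34, -0.31 and -0.45. Without WT WD replicate 2 these turned to 0.50, 0.47 and 0.13. *Nptx2*, the neuronal pentraxin of excitatory synapses, was at 65.1 and 169 CPM in WT WD and at 47.1 and 54.2 CPM in Tas1r3-/- WD, and *Npas4* at 18.4 and 16.5 CPM and at 13.7 and 16.1 CPM. These were the 2 genes of this list with both knockout libraries below both WT WD libraries. For *Npas4* the groups nearly met, at 16.1 CPM in Tas1r3-/- WD replicate 2 and 16.5 CPM in WT WD replicate 2. *Bdnf*, itself an activity-induced gene, did not share the shape of *Egr1* and *Fos*, since its groups overlapped.

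Over the 4 libraries and the 8611 genes with a mean of at least 20 CPM, the genes most like *Bdnf* in log2 CPM were *Nus1*, *Vps33b* and *Bicdl1*, each with a Pearson r of 1.00 after rounding, and those most like *Ntrk2* were *Zfp609*, *Lingo3* and *Dgkk*, likewise with r of 1.00. Each r rests on 4 points only. Of the 8611 genes, 80 reached an r of 0.95 with *Bdnf* and 894 with *Ntrk2*. The genes most like *Ntrk2* shared its low value in WT WD replicate 2, where *Zfp609* was at 50.9 CPM against 81.8, 89.0 and 84.5 CPM and *Dgkk* at 18.0 CPM against 64.1, 82.3 and 70.3 CPM.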

How the data were processed

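Ion Torrent reads were aligned by the authors with STAR in Partek Flow to mm39 and quantified on RefSeq transcripts, and the deposited values are estimated counts per transcript without normalization (13.0% are whole numbers). The 4 single-sample tables are identical to the columns of the joint table. RefSeq identifiers gave a gene to 30891 of 30930 transcripts, and the other 39, with 0.347% to 2.49% of counts per library, were left out. Sums over the transcripts of each of 16339 genes were rounded to whole counts. Reads were counted without stated strand, so overlapping genes cannot be told apart.

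Tests used edgeR 4.0.16 in R 4.3.3 (quasi-likelihood, TMM, filterByExpr, Benjamini-Hochberg over all genes or transcripts tested), after testing on simulated data. Alternatives were DESeq2 1.42.0 (the tool named in the study's methods, which give more mice per group than the libraries analysed here), limma 3.58.1, other scalings and filters, a replicate block and leaving out each library. Log2 CPM used a prior count of 2. At 5728729 to 6180137 counts of named genes per library, limits of 3 counts and intervals cover counting error or library spread only.

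The members and lists were chosen with earlier results of these data known. Named in the text are the members, each *Bdnf* and *Ntrk2* transcript, the 3 most abundant genes and any called gene of each pathway list, the 2 most abundant of each marker list and the 3 genes most like *Bdnf* and *Ntrk2*. Other pathway genes were named after their values were seen, and some genes that the rule would name are not reported here. Coordinates are from GENCODE M39 (GRCm39). Plots used matplotlib 3.10.9 (Python 3.11.15).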

Additional observations from a re-analysis of the deposited data

How the results depend on the processing

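No gene and no transcript was called in the fit of all 4 libraries, whatever scaling or filter was used, by limma-trend, or without the fold change threshold, whereas DESeq2 called 8 genes and 7 transcripts, none of them a member. The count rests on the controls: leaving out each library in turn gave between 0 and 2122 genes and between 0 and 104 transcripts, with 2122 genes and 104 transcripts when WT WD replicate 1 was dropped and 32 genes and 0 transcripts when WT WD replicate 2 was dropped. A group left with 1 library was assumed to vary like the other. Without WT WD replicate 1 the adjusted p passed 0.05 for *Ntrk2* (0.44), *Ntrk3* (0.94), *Ngfr* (3.28) and *Vgf* (0.80). Over the fits with a library left out, log2 fold changes ranged from -0.041 to 0.23 for *Bdnf*, 0.050 to 0.44 for *Ntrk2*, -0.20 to 0.94 for *Ntrk3*, 1.08 to 3.28 for *Ngfr*, -0.30 to 0.16 for *Sort1* and 0.10 to 0.80 for *Vgf*. They ranged from -0.80 to 0.67 for NM_001048139, from -1.59 to 0.71 for NM_001048142 and from -0.053 to 0.30 for NM_001025074, each with a change of sign. Members whose groups did not overlap numbered 3 with all libraries, 5 when WT WD replicate 1 was dropped (of all genes, 41.8% were then above and 40.6% below) and 6 when WT WD replicate 2 was dropped (37.6% above and 37.4% below), where fewer controls make overlap rarer. The cause of the other shifts was not tested. DESeq2 gave no adjusted p for *Tas1r3*, which also dropped out with at least 10 counts required in every library. NM_001048141 dropped out under that requirement as well.

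The replicate numbers did not pair the libraries (correlation of deviations 0.0821 over 2 pairs). With the replicate block 0 genes were called, and log2 fold changes were 0.10 for *Bdnf*, 0.24 for *Ntrk2*, 0.36 for *Ntrk3*, 1.97 for *Ngfr*, -0.08 for *Sort1* and 0.45 for *Vgf*.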
